A study of Mus musculus with 8 samples.

Results

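The acute-phase gene Saa3 and the complement genes Cfb, C3, Cfp, C5ar1 and C3ar1 were followed in bulk RNA sequencing of mouse neutrophils. They were chosen by symbol, with their levels after aOX40 and IgG treatment already known, and are 6 of the 18187 genes of the deposited table. All 6 passed the filter on low counts. Because their own difference between the treatments entered the choice, it is given here as a description. Which of them passed a test is only counted, for several methods and with single libraries left out, beside the number or share of all genes that did.

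The libraries come from neutrophils linked to B16 tumors, a mouse melanoma line, and 3 libraries carry the treatment aOX40 and 5 the treatment IgG. Tnfrsf4 encodes OX40, which costimulates activated T cells. By its title the series concerns neutrophil activation under T cell immunotherapies, and the only contrast is aOX40 against IgG. The labels give no dose, timing, mouse strain, age or method of cell isolation. Nor do they say whether each library is a separate animal, so spreads and p-values cover the variation between libraries, which may be technical. The groups also differed in depth, with 69.6 to 73.5 M counts (M, mega) in aOX40 libraries and 52.7 to 63.2 M in IgG libraries. The 12 neutrophil markers summed to 25274 to 29820 CPM (counts-per-million units, scaled by TMM) in aOX40 and 21581 to 30987 CPM in IgG. Single markers differed, with log2 fold changes (aOX40 over IgG) from -0.37 (Clec4d, SE 0.20) to 1.19 (Mmp8, SE 0.31) and 1.28 (Mmp9, SE 0.34). Of the 12, 0 had an adjusted p below 0.05 in edgeR's quasi-likelihood test, against 2.41% of all genes tested.

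Serum amyloid A proteins are acute-phase proteins, made in large amounts by the liver during inflammation, while Saa3 in mice is made mainly outside the liver, by macrophages, fat and epithelium among others. Complement is a cascade of plasma proteins that converges on cleavage of C3. Factor B, encoded by Cfb, binds the large C3 fragment to form the convertase of the alternative pathway, and properdin, encoded by Cfp, stabilises that enzyme and is stored by neutrophils. The small fragments C3a and C5a are sensed by the receptors C3ar1 and C5ar1, and C5a is a strong attractant and activator of neutrophils.

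Saa3 lies on chromosome 7 at 46711998 to 46715700 on the minus strand (mm10, GENCODE M21). It stood at 168, 40.2 and 89.6 CPM in aOX40 replicates 1, 2 and 3. In IgG replicates 2 to 6 it stood at 3.82, 1.22, 2.07, 14.7 and 5.49 CPM. The groups did not overlap, and the lowest aOX40 library was 2.74 times the highest IgG library. Within aOX40 the highest library was 4.19 times the lowest, and within IgG 12.1 times, with replicate 5 highest. The fitted log2 fold change was 4.19 (SE 0.78, 3 against 5 libraries), 4.98 without IgG replicate 5 and 3.57 without aOX40 replicate 1.

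The closest relatives of Saa3 were almost without reads. Saa1 had 85, 0 and 3 counts in aOX40 replicates 1 to 3 and 0 counts in every IgG library. Saa2 had 14 counts in IgG replicate 3 and 0 in the other libraries. The Saa3 transcript matched those of Saa1 and Saa2 at 81.3% and 80% identity, over 51.2% and 51.4% of its length, so it has no near-identical copy among the mouse transcripts searched.

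Cfb lies on chromosome 17 at 34856374 to 34862518, minus strand. It was at 17.8, 14.9 and 22.6 CPM in aOX40 replicates 1 to 3. The IgG libraries but 1 lay close together, at 2.44, 3.28, 2.37 and 2.74 CPM in replicates 2, 3, 5 and 6, while replicate 4 was at 0.074 CPM, which is 4 counts. The groups did not overlap, with the lowest aOX40 library 4.55 times the highest IgG library. The log2 fold change was 3.08 (SE 0.79), and 2.77 without IgG replicate 4. A readthrough gene model, Gm20547 (chromosome 17, 34856412 to 34882042, minus strand), runs over Cfb and is identical to 82.1% of its transcript. C2, the classical-pathway counterpart of factor B, had 0 to 21 counts per library, so hardly any reads were assigned to it in either group. Gm20547 also runs into C2 and is not among the genes of the deposited table. Whether reads shared with it are missing from the counts of Cfb or C2 was not tested.

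C3 lies on chromosome 17 at 57203970 to 57228136, minus strand. It was at 112, 115 and 103 CPM in aOX40 replicates 1 to 3 and at 43.5, 69.8, 34.5, 83.7 and 63.2 CPM in IgG replicates 2 to 6. The 3 aOX40 libraries lay within 1.11-fold of each other and above every IgG library, although the gap was small, 1.23-fold between the nearest libraries. The log2 fold change was 0.90 (SE 0.28). IgG replicate 5, the highest IgG library for Saa3, was also the highest for C3. IgG replicate 4, the lowest for Cfb, was the lowest for C3.

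**Figure D1:**
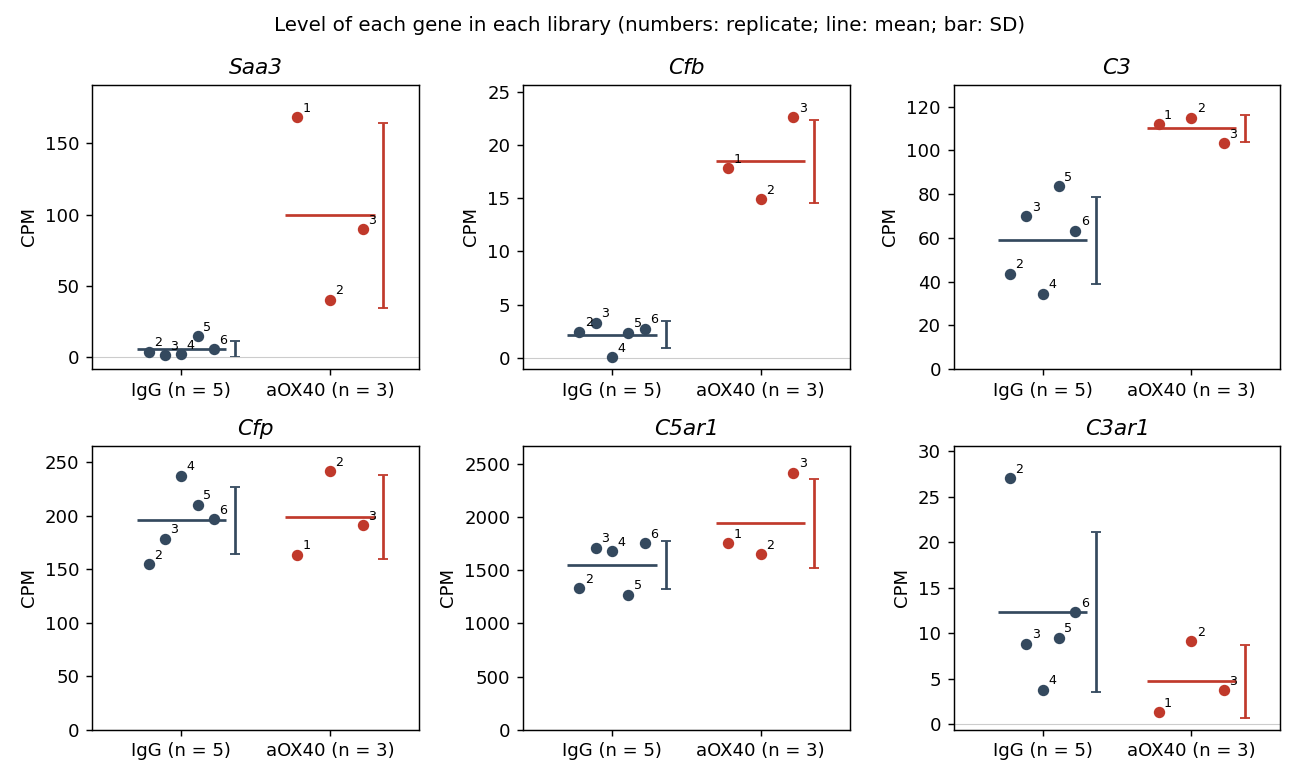
CPM of the 6 genes in every library, on linear axes from 0. Points are libraries labelled with their replicate number, horizontal lines are group means and bars are SD; Saa3, Cfb and C3 have no aOX40 library at the height of an IgG library, while Cfp, C5ar1 and C3ar1 overlap.

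Promoter sequences, from 250 bases before to 50 bases after the RefSeq start (GRCm38.p6), matched 5 of the 6 genes, all but Cfb. Those of Saa3 and C3 are shown because both genes were without overlap between the treatments. Capitals mark matches to the C/EBP motif TTNNGNAA on either strand, the only one of the motifs searched that was found in these promoters. C/EBP factors are transcription factors of acute-phase and granulocyte genes.
Saa3, chr7:46715627-46715926, minus strand: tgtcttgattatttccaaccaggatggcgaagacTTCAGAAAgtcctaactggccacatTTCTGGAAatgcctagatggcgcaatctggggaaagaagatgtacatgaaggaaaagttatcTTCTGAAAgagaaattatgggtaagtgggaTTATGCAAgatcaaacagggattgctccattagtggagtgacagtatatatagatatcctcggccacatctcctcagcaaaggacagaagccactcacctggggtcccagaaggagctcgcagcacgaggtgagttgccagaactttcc
C3, chr17:57228087-57228386, minus strand: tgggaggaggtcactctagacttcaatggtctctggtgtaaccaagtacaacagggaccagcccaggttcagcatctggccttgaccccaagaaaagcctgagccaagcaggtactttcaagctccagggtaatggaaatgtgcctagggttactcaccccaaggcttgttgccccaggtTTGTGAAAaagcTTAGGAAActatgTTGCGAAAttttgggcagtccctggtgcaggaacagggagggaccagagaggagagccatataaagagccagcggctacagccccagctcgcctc
Saa3 held 4 matches, starting at 216, 191, 129 and 99 bases before the RefSeq start, and C3 held 3, starting at 70, 58 and 45 bases before it. The shares below for at least 3 and at least 4 matches were added after the matches had been seen. At least 1 match stood in 40.7% of 32851 promoters of the same length, at least 3 in 3.6% and at least 4 in 0.852%. The C5ar1 promoter held 1 C/EBP match, the C3ar1 promoter 1 match to the AP-1 motif TGANTCA (7.81% of promoters), and Cfp none of the motifs searched. The other searches were the STAT motif TTCNNNGAA (8.3% of promoters) and the NF-kB motif (8.46%). A match describes the letters of the window and is not a measured binding site.

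Cfp, on chromosome X at 20925454 to 20931555, minus strand, differed little. It was at 164, 242 and 191 CPM in aOX40 replicates 1 to 3 and at 155, 179, 237, 211 and 197 CPM in IgG replicates 2 to 6. The ranges of the groups covered each other almost wholly. The log2 fold change was 0.02 (SE 0.20) and turned to small negative values in some alternatives, the lowest -0.14 without aOX40 replicate 2. The highest was 0.37, with the replicate number as a block, where the median of all genes was 0.14. Scaling by total counts alone gave 0.35, and the same scaling raised the median of all genes from 0.05 to 0.35.

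The C5a receptor was the most abundant of the 6 genes. C5ar1 (chromosome 7, 16246743 to 16259540, minus strand) was at 1755, 1649 and 2418 CPM in aOX40 replicates 1 to 3. IgG replicates 2 to 6 held 1334, 1714, 1678, 1270 and 1754 CPM. Replicate 3 of aOX40 was above all other libraries, and the other aOX40 libraries lay inside or next to the IgG range. The log2 fold change was 0.32 (SE 0.19), or 0.14 without aOX40 replicate 3. Scaling by total counts alone gave 0.62, where the median of all genes was 0.35. Its neighbour C5ar2, another C5a receptor 2589 bases away, averaged 10.1 ± 1.67 CPM (SD, n = 3) after aOX40 and 8.90 ± 2.88 CPM (SD, n = 5) after IgG.

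C3ar1, the C3a receptor (chromosome 6, 122847138 to 122856161, minus strand), was the only member with a lower mean in aOX40. It was at 1.32, 9.13 and 3.72 CPM in aOX40 replicates 1 to 3, and at 27.04, 8.86, 3.80, 9.53 and 12.3 CPM in IgG replicates 2 to 6. The highest library was 6.93 times the lowest in aOX40 and 7.12 times in IgG, and the groups overlapped. The log2 fold change was -1.38 (SE 0.74) and moved with single libraries, to -0.87 without IgG replicate 2, -0.93 without aOX40 replicate 1 and -2.29 without aOX40 replicate 2.

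Among the 6 genes, 3 were higher in every aOX40 library than in any IgG library, where 8.22% of the 13278 genes tested were. Of the 6, 1 (Saa3) had an adjusted p below 0.05 in edgeR's quasi-likelihood test, against 2.41% of all genes tested in either direction. With bias-adjusted quasi-dispersions, a newer setting of edgeR run after the first result had been seen, these numbers were 2 (Saa3 and Cfb) and 5.65%. DESeq2 called 3 (Saa3, Cfb and C3), against 12.3%. With 1 library left out, edgeR called Saa3 in 1 of 8 fits (without IgG replicate 5), Cfb in 1 of 8 (without IgG replicate 4) and C3 in 0. Over the whole table edgeR called 95 of 12941 genes tested without IgG replicate 5 and 187 of 13000 without IgG replicate 4. Without aOX40 replicate 2 or 3 it called 0, so no gene could be called there. Since the genes were picked on this contrast, nothing is read from these counts.

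**Figure D2:**
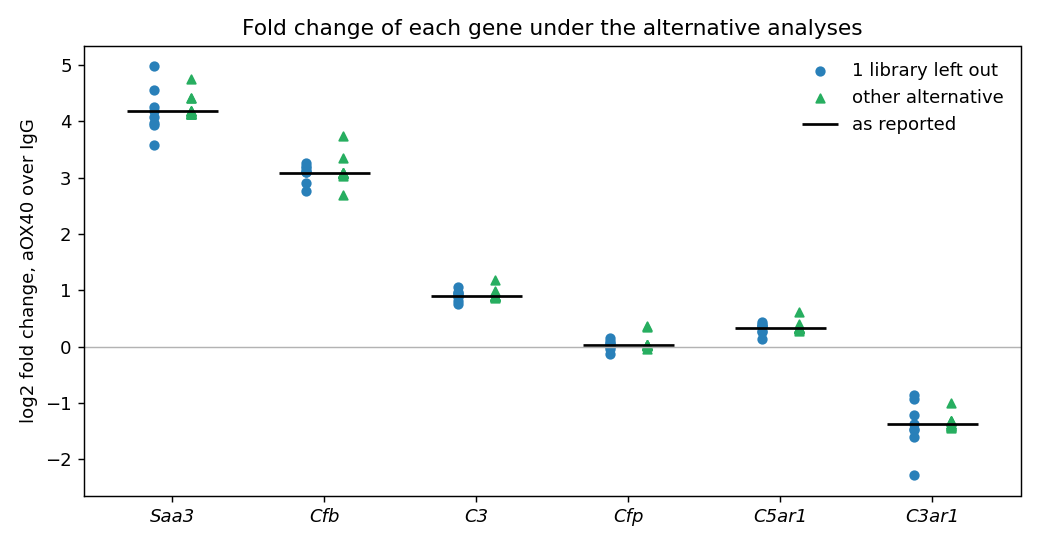
Log2 fold change (aOX40 over IgG) of each gene as reported (black line), with 1 library left out (circles) and under the other alternative analyses (triangles). Saa3 ran from 3.57 to 4.98, Cfb from 2.70 to 3.74, C3 from 0.76 to 1.19 and C3ar1 from -2.29 to -0.87, while Cfp lay on both sides of 0.

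Levels of different genes can be compared once divided by transcript length. The length used was the longest CCDS transcript, chosen after values on the union of all annotated exons had been seen, because a long processed transcript stretches that union from 555 to 2606 bases for Saa3. On CPM per kb of the CCDS transcript, C5ar1 led in all 8 libraries, averaging 764 ± 164 after aOX40 (SD, n = 3) and 610 ± 90.3 after IgG (SD, n = 5). Cfp followed in every IgG library, at 120 ± 19.2 CPM per kb. In aOX40 Cfp was at 122 ± 24.1 and Saa3 at 179 ± 117 CPM per kb, and Saa3 stood above Cfp in replicates 1 and 3 and below it in replicate 2. In IgG Saa3 was at 9.83 ± 9.75 CPM per kb, below C3 in 4 libraries and above it in replicate 5, with C3 at 11.5 ± 3.87. At the low end, Cfb was below C3ar1 in each IgG library (0.80 ± 0.45 against 2.86 ± 2.04 CPM per kb) and above it in each aOX40 library (6.74 ± 1.42 against 1.10 ± 0.93). The neighbouring pairs Saa3 and Cfp in aOX40, and Saa3 and C3 in IgG, thus did not hold 1 order within their group. The place of Saa3 depends on the length: on the union of exons it averaged 38.1 ± 24.8 CPM per kb in aOX40 and 2.09 ± 2.08 in IgG. There it lay below Cfp in 3 of 3 aOX40 libraries, below C3 in 1 of 3, and below C3 in 5 and C3ar1 in 4 of 5 IgG libraries.

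The proportions between members moved accordingly. C3 exceeded Cfb per kb by 2.43 to 4.11 times in aOX40 libraries and by 9.50 to 247 times in IgG libraries, where the 247 is replicate 4 with its 4 Cfb counts. On the CCDS length, Saa3 was 3.23 to 13.9 times C3 per kb in aOX40 and 0.16 to 1.62 times in IgG. C5ar1 exceeded C3ar1 per kb by 306 to 2257 times in aOX40 and by 83.6 to 749 times in IgG, ranges that overlap.

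**Figure D3:**
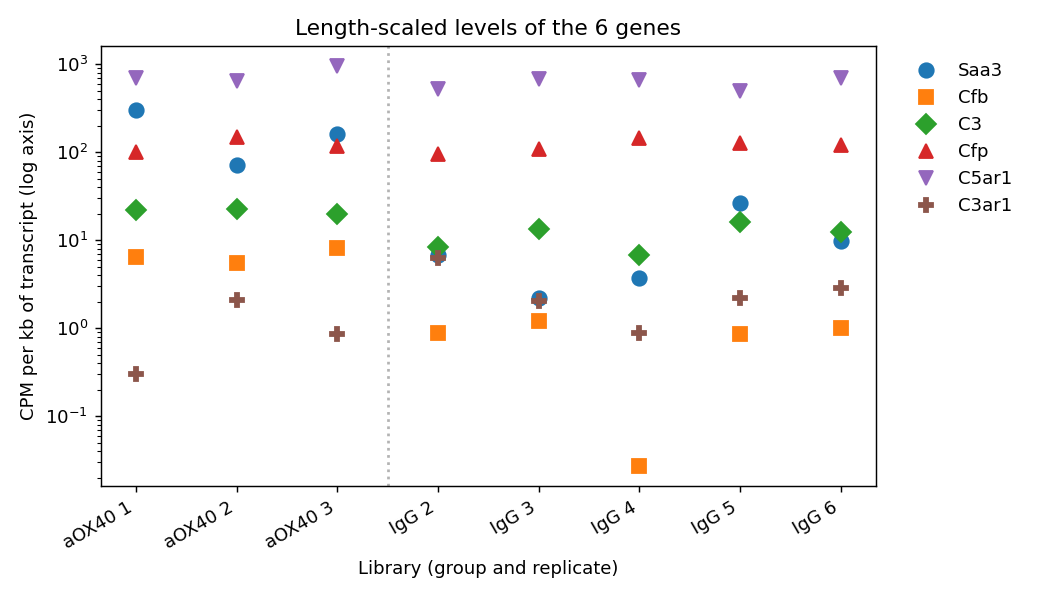
CPM per kb of the longest CCDS transcript (log axis) of the 6 genes in each library, aOX40 left of the dotted line and IgG right of it. C5ar1 is highest throughout, Saa3 moves from near C3 in IgG to near Cfp in aOX40, and Cfb and C3ar1 change places at the bottom.

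The rest of the complement system was read from 5 lists by role, with 60 genes in all. Of these, 30 were in the table, among them 5 of the 6 genes described above, and 16 of the other 25 were tested. In edgeR 1 of the 16 rose (Itgb2) and 1 fell (Cd93), where 2.41% of all genes tested were called in either direction. At an unadjusted p below 0.05 were 4 of the 16, where 2363 of all genes tested (17.8%) were. DESeq2 called 4 (Itgb2 higher, and Cd93, Fcnb and Itgax lower), against 12.3% of all genes. The median log2 fold change of the 16 was 0.20, against 0.05 over all genes tested.

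Genes that start the classical and lectin pathways were low. C1qb, a chain of the C1q recognition molecule, ran from 0 to 1.81 CPM over all libraries. C4b, a component of the classical convertase, averaged 2.61 ± 1.56 CPM after aOX40 and 2.24 ± 1.43 CPM after IgG. Fcnb, a ficolin of granulocytes, was at 1.16 ± 0.72 against 4.15 ± 1.61 CPM, and it did not pass (-1.84 on the log2 scale, SE 0.67, adjusted p = 0.187, edgeR). In the terminal pathway Hc, the mouse gene of C5, reached at most 1.62 CPM. C4b has a near relative in C4a, and reads could be split between them.

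Among inhibitors, Cr1l, the rodent regulator Crry that blocks C3 convertases on the cell's own surface, was the most abundant, averaging 47.4 ± 4.62 CPM after aOX40 and 38.6 ± 10.4 CPM after IgG. Cd55, which speeds convertase decay, was at 7.80 ± 6.28 against 3.19 ± 1.86 CPM, with aOX40 replicate 2 alone at 14.9. Neither passed in edgeR (adjusted p = 0.618 and 0.347). Cd46 stayed at or below 2.76 CPM.

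Of the complement receptors, the integrin chain Itgb2, which pairs with Itgam in complement receptor 3, rose. It was at 393, 686 and 771 CPM in aOX40 replicates 1 to 3, all above the IgG range of 251 to 341 CPM (log2 fold change 1.07, SE 0.22, adjusted p = 0.0446, edgeR). Itgam itself was at 295 ± 59.3 against 308 ± 70.4 CPM (-0.06, SE 0.23), a value that is 0.26 with scaling by total counts alone. Itgax, the alpha chain of complement receptor 4, was at 15.4 ± 4.07 against 30.9 ± 7.83 CPM and did not pass (-1.005, SE 0.29, adjusted p = 0.108, edgeR). Cd93, a surface glycoprotein once described as a C1q receptor, fell from 211, 179, 137, 178 and 187 CPM in IgG replicates 2 to 6 to 84.9, 75.8 and 109 CPM in aOX40 (-0.99, SE 0.20, adjusted p = 0.0412, edgeR). The calls of Itgb2 and Cd93 were each kept in 11 of 21 alternative analyses. Both were lost without IgG replicate 2, 3, 5 or 6 and without aOX40 replicate 2 or 3; Itgb2 was also lost without IgG replicate 4 and Cd93 without aOX40 replicate 1. With no filter on low counts both missed the threshold (adjusted p = 0.0639 and 0.0605, edgeR), as did Itgb2 with DESeq2 size factors in edgeR (0.0507) and Cd93 with total counts alone (0.0909). Both were lost with the replicate block (adjusted p = 0.373, edgeR).

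**Figure D4:**
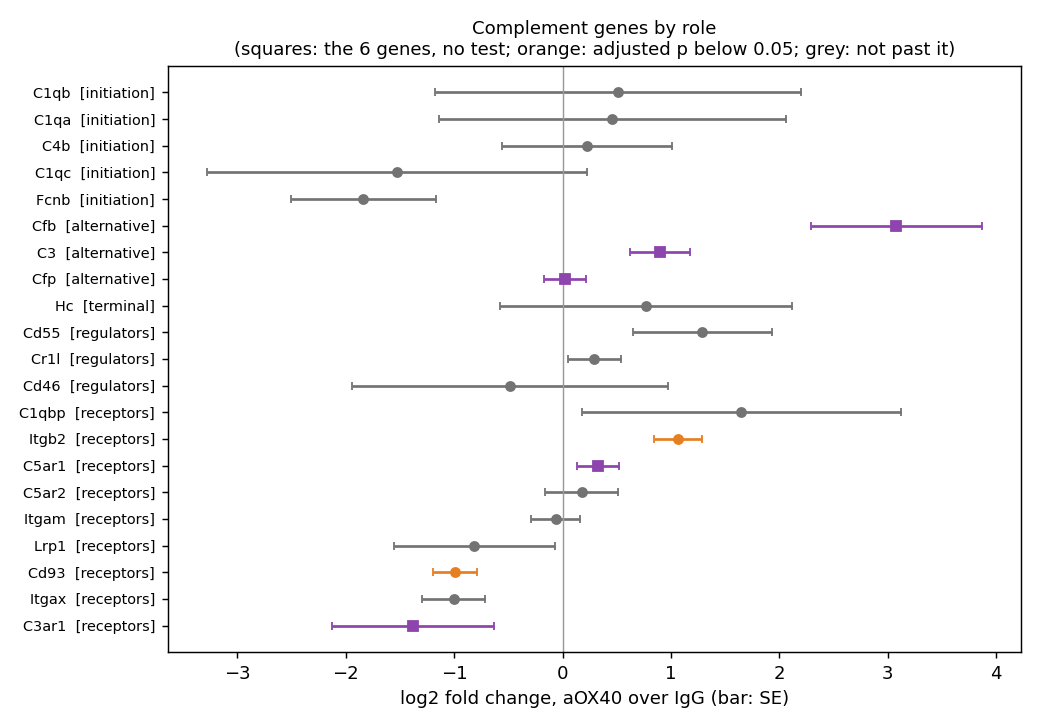
Log2 fold change with SE of the tested complement genes, grouped by role. Cfb is farthest from 0 and is a description only, Itgb2 and Cd93 (orange) passed the test in opposite directions, and genes at very low levels such as C1qa, C1qb and C1qc have wide errors.

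The acute-phase context was read from 3 lists of 65 genes, of which 45 were in the table and 40, Saa3 left out, were tested. In edgeR none rose and 1 fell (P2rx7), with 12 at an unadjusted p below 0.05, against 2.41% called and 17.8% at an unadjusted p below 0.05 over all genes tested. DESeq2 called 10, against 12.3% of all genes. Of these, Fpr1, Hp, Lcn2, Nfkb2, Tlr2 and Tnf were higher and Irf1, Osm, P2rx7 and Tnfrsf1a lower. Bias-adjusted quasi-dispersions called 3 (P2rx7 and Tnfrsf1a lower and Hp higher), against 5.65%. The median log2 fold change of the 40 was 0.15, against 0.05 over all genes tested.

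Levels of the acute-phase proteins spread widely: of the 32 listed, 15 were in the table, and 7 of these averaged below 5 CPM in both groups. The genes described next are mostly those with the highest levels. Lcn2, the iron-scavenging lipocalin of neutrophil granules, was at 2904, 1944 and 1483 CPM in aOX40 replicates 1 to 3 and 730 to 1719 CPM in IgG, which overlap (log2 fold change 0.94, SE 0.30, adjusted p = 0.141, edgeR). Hp, haptoglobin, a hemoglobin-binding protein named here after its values were seen, was at 1362 ± 123 against 618 ± 226 CPM (1.14, SE 0.30, adjusted p = 0.0856, edgeR). Cd14, the co-receptor for lipopolysaccharide, was at 19437 ± 4521 against 12424 ± 4925 CPM. Il1rn, the interleukin-1 receptor antagonist, was at 7296 ± 1930 against 8179 ± 2606 CPM, with a log2 fold change of -0.16 that is 0.12 with scaling by total counts alone. Neither Cd14 nor Il1rn passed in edgeR (adjusted p = 0.384 and 0.845).

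Receptors reported to bind serum amyloid A were read as a list of their own. Fpr1, a formyl peptide receptor, averaged 1302 ± 273 CPM after aOX40 and 717 ± 223 CPM after IgG, and Tlr2, a sensor of bacterial lipoproteins, was at 643 ± 106 against 288 ± 129 CPM. In both genes every aOX40 library was above every IgG library, as in 8.22% of all genes tested, but neither passed in edgeR (adjusted p = 0.130 and 0.129). Fpr2 was at 377 ± 151 against 343 ± 95.7 CPM and did not pass either (adjusted p = 0.885, edgeR); it overlaps Fpr3 on the same strand. P2rx7, an ATP-gated channel, fell between low levels, from 4.82 to 11.6 CPM in IgG to 1.01 to 1.99 CPM in aOX40 (log2 fold change -2.29, SE 0.47, adjusted p = 0.0412, edgeR). Its call was kept in 10 of 21 alternatives and lost when any 1 library was left out, with no filter on low counts, with total counts alone and with the replicate block. Of the 21 alternatives, 5 are closely related edgeR settings added after the data were seen.

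Of the cytokines and factors that induce acute-phase genes, Il1b averaged 12035 ± 3488 CPM after aOX40 and 14959 ± 4436 CPM after IgG, and Cebpb, a C/EBP factor, was at 12259 ± 3158 against 17228 ± 3894 CPM. Nfkbia, the inhibitor of NF-kB that NF-kB itself induces, was at 4273 ± 1828 against 3057 ± 1162 CPM. None of these passed in edgeR (adjusted p = 0.652, 0.362 and 0.573). They were named for their high levels. Of the 21 tested genes of this list, 0 passed in edgeR and 7 had an unadjusted p below 0.05, against 17.8% of all genes tested. DESeq2 called Tnf and Nfkb2 higher and Osm, Irf1 and Tnfrsf1a lower. Il1b and Cebpb overlap genes on the other strand (Il1bos and Tmem189), and without knowing whether counting used strand, reads of such pairs cannot be told apart.

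**Figure D5:**
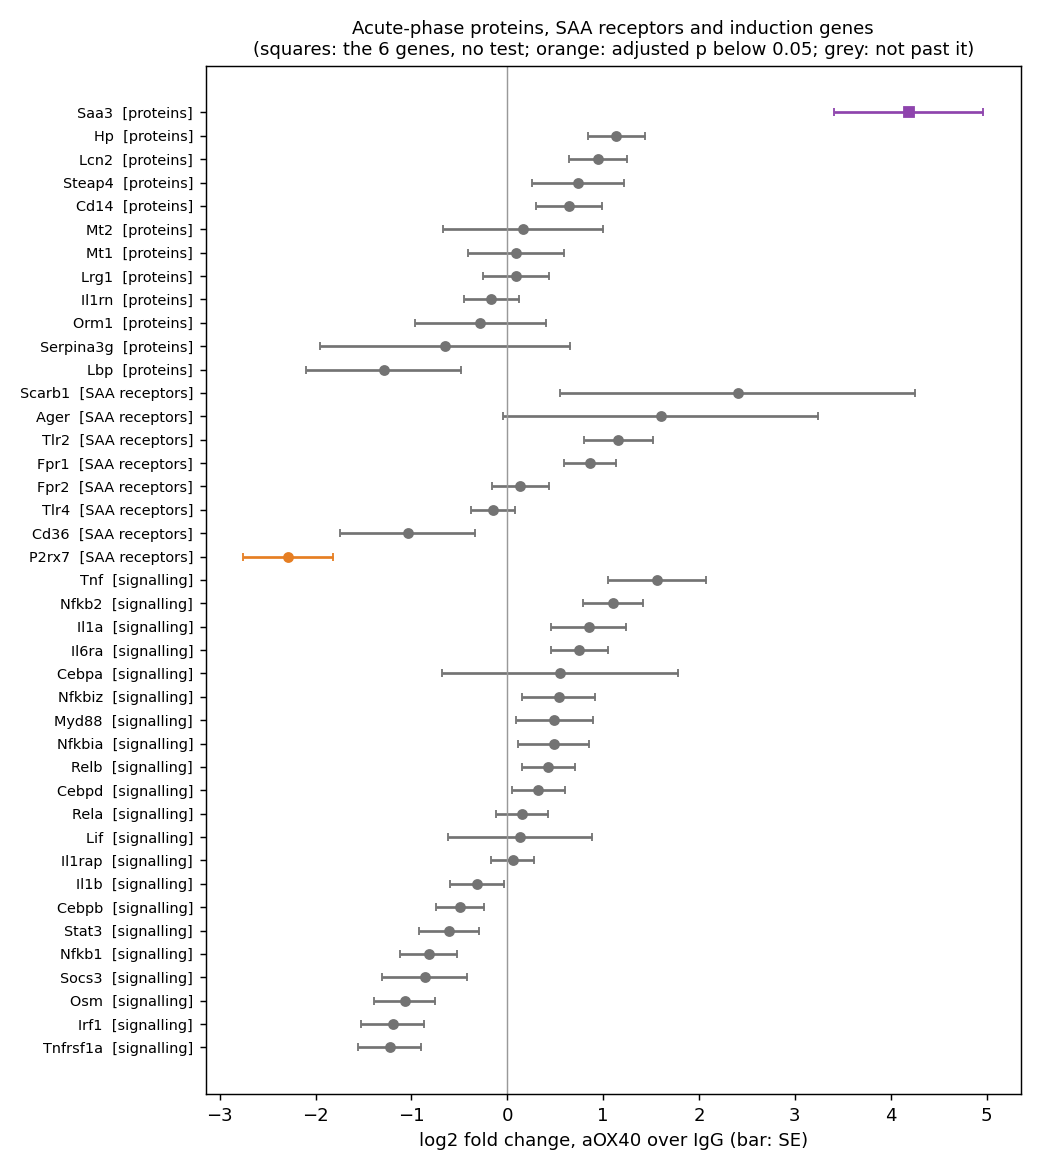
Log2 fold change with SE of the tested acute-phase proteins, serum amyloid A receptors and induction genes. Saa3 (square, no test) lies at 4.19, P2rx7 (orange) at -2.29, and the grey genes between them did not pass the test.

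The genes whose profile over the 8 libraries lay closest to Saa3 were Adora2b, Prdx1, Cd38, Eif3b and Ikbke. Likeness was the root mean square difference of log2 CPM, each gene centred on its own mean, among 4966 named genes with a mean of at least 10 CPM in either group. The distances ran from 1.27 for Adora2b, an adenosine receptor, to 1.40 for Ikbke, an NF-kB and interferon pathway kinase, and Cfb ranked 27 at 1.64. Since Saa3 was chosen on the contrast of the treatments, likeness to it selects genes that are higher in aOX40 and adds no separate result. Among the genes closest to Saa3, Eif3b (13.1 CPM in aOX40, 4.08 CPM in IgG) reached the 10 CPM minimum only through its aOX40 mean. Adora2b was at 78.7, 40.1 and 40.0 CPM in aOX40 replicates 1 to 3 and, like Saa3, highest in replicate 5 among IgG libraries (33.3 CPM). Closest to Cfb were Slc35b2, Psmd1, Cd38, Slc6a12 and Dhps, at 0.91 to 1.01. Likeness to Cfb selects genes that are low in IgG replicate 4, where Slc35b2, a Golgi sulfate donor transporter, was at 0.15 CPM and Dhps, the deoxyhypusine synthase, at 0.19 CPM. Of the 5, all but Cd38 reached the 10 CPM minimum only through their aOX40 mean. Cd38, an NAD-consuming ectoenzyme, was near both Saa3 and Cfb, at 53.4, 71.8 and 45.6 CPM in aOX40 and 1.36 to 27.4 CPM in IgG.

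In bulk samples, fewer cells of a type and less RNA per cell cannot be told apart. This holds for all 6 genes, and some of them, Saa3, C3, Cfb and C3ar1 among others, are also transcribed by macrophages. Of 12 macrophage and monocyte markers, 11 were in the table and their sum was 551 to 794 CPM in aOX40 and 381 to 730 CPM in IgG, most of it Ly6c2. Adgre1 and Csf1r, the F4/80 antigen and the M-CSF receptor, were higher in every aOX40 library than in any IgG library, as were 8.22% of all genes tested. Neither passed the test in edgeR's default fit. Adgre1 was at 14.5, 26.8 and 23.6 CPM in aOX40 against 2.13 to 8.55 CPM in IgG (log2 fold change 1.82, SE 0.43, adjusted p = 0.0666, edgeR), and Csf1r was at 39.9, 38.0 and 75.6 CPM against 4.51 to 25.1 CPM (1.55, SE 0.48, adjusted p = 0.129, edgeR). Both were picked out after their values were seen. The other tested markers had log2 fold changes of 1.84 (Ccr2), 0.51 (C1qb), 0.46 (C1qa), 0.37 (Ly6c2), 0.02 (Apoe), -0.50 (Fcgr1) and -1.53 (C1qc). For Ccr2 (SE 1.88) and the C1q chains the SE was larger than the size of the change. In edgeR 0 of the 9 tested markers passed, against 2.41% of all genes tested. With bias-adjusted quasi-dispersions 1 of the 9 tested markers passed, against 5.65%. The defining marker Mertk had 0 counts in every library but aOX40 replicate 2, where it was at 0.86 CPM, and the C1q chains stayed below 1.90 CPM. The part of these cells in the values of the 6 genes was not tested. T and NK cell markers summed to 17.1 CPM in aOX40 replicate 1, the library with the most Saa3, and to 1.21 to 3.70 CPM in the others; their part in the Saa3 values was not tested. Dendritic cell markers summed to 60.7 to 85.3 CPM in aOX40 and 17.8 to 84.4 CPM in IgG, endothelial markers to 3.87 to 9.57 and 7.05 to 27.5 CPM, and melanoma markers to 4.59 to 9.07 and 5.77 to 15.4 CPM. B and plasma cell markers summed to at most 0.86 CPM. Hepatocyte markers summed to at most 0.91 CPM and keratinocyte markers to at most 0.12 CPM, and fibroblast markers summed to 1.22 to 4.04 CPM in aOX40 and 3.45 to 32.4 CPM in IgG.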

How the data were processed

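Estimated counts per gene were deposited by the authors for 8 libraries; 63.4% of the values were whole within 0.01 and the rest carried fractions. Per the submitters' processing notes, STAR 2.6.0, Subread and featureCounts 1.5.1 were used on build mm10, with settings, annotation and the source of the fractions not stated. Values were rounded, filtered with filterByExpr by group, scaled with TMM and fitted with edgeR 4.0.16 (glmQLFit in its default form, glmQLFTest; R 4.3.3). Treatment was the sole model term. Benjamini-Hochberg adjustment ran over 13278 genes with a threshold of 0.05. SE were derived from the F statistic, and CPM use the TMM factors. The members and lists were chosen with earlier results of these data known.

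Named from each list were up to 4 genes past the threshold, by adjusted p, and up to 3 more with the highest mean CPM. Alternatives were other scalings and filters, DESeq2 1.42.0, limma 3.58.1 voom, each library left out and the replicate number as a block. The default fit called 320 genes, fewer than an earlier analysis of these files, and 12 combinations of edgeR settings (bias-adjusted quasi-dispersions, robust estimation, no estimateDisp, library sizes kept) were then run, after that result had been seen. They called 320 to 750 genes. The default was kept because it is the fit first planned. It was also compared with bias-adjusted quasi-dispersions on 10 simulated data sets of 12382 to 12597 genes. In these, 200 genes with a mean of at least 10 CPM were changed by 2 or 3 on the log2 scale. The default made 2 to 12 false calls beside 170 to 189 true calls, against 8 to 24 beside 178 to 192 with bias-adjusted quasi-dispersions. The simulated counts were drawn from edgeR's own model with the dispersions of its fit. They therefore cannot show which setting is right for the real libraries. False calls were 1.05% to 6.06% of all calls with the default and 4.04% to 11.3% with the other, so neither stayed under 5% in every data set. The other distinct settings are reported as alternatives. Positions and transcript lengths came from GENCODE M21 and near copies from BLAST+ 2.17.0 (at least 95% identity over 50% of a transcript). The CCDS transcript length and the shares of promoters with several C/EBP matches were also chosen after values had been seen. With libraries this deep, the spread between libraries (biological coefficient of variation 84.7%) sets the precision more than counting does.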

Additional observations from a re-analysis of the deposited data

Results flagged for a closer look

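Cfb in IgG replicate 4 stood at 0.074 CPM, far below the other IgG libraries (2.37 to 3.28 CPM): the gap to its nearest neighbour was 0.714 of the group's whole range, above the critical value of 0.71 for 5 libraries. It was the only value so marked among 29 genes or totals examined in the 5 IgG libraries, and chance marks about 1 in 20 such groups.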

How the results depend on the processing

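The number of genes past the threshold in the whole table, 320 in edgeR's default fit, depended on the method and on single libraries. It was 172 with no filter, 724 in limma voom and 1629 in DESeq2. Among edgeR settings added after the data were seen it was 325 with robust estimation, 750 with bias-adjusted quasi-dispersions, 700 with both, and 748 and 680 for the last 2 without estimateDisp. With 1 library left out it ran from 0 to 187. The 0 arose without aOX40 replicate 2 or 3, where 1604 and 1905 genes had an unadjusted p below 0.05 in edgeR. Scaling by total counts alone gave 384 calls, 220 of them shared with the 320, and 71.1% of the 384 were higher, against 34.1%. Of the complement genes other than the members, 2 passed; 1 passed with DESeq2 size factors in edgeR or with total counts alone, 4 in DESeq2, and 0 with no filter (6 at an unadjusted p below 0.05). Leaving out 1 library gave 0 to 1. Of the acute-phase genes 1 passed, against 3 in limma voom, 3 with bias-adjusted quasi-dispersions (2 with robust estimation too, and without estimateDisp 3, or 1 with robust estimation), 10 in DESeq2, 0 with no filter (14 unadjusted) and 0 with any 1 library left out (9 to 14 unadjusted).

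With the replicate block, in which only replicates 2 and 3 bear on the comparison, edgeR called 0 genes in the whole table (1769 at an unadjusted p below 0.05), 0 complement genes and 0 acute-phase genes. For replicates 2 and 3, the deviations of the libraries of equal number from their group means correlated at 0.022 and 0.047 over the genes tested. Whether such libraries shared a batch or another pairing cannot be told from these values.

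Some log2 fold changes changed sign: Hc from 0.77 to -0.55 with the replicate block, Cd46 from -0.48 to 0.84 in limma voom, and Itgam to 0.26 and Il1rn to 0.12 with total counts alone. With 1 library left out, the log2 fold change ran from -0.080 to 0.66 for C4b, -0.31 to 1.38 for C1qb, -0.97 to 0.46 for Cd46, -0.24 to 0.053 for Itgam, -0.40 to 0.018 for Il1rn and -0.24 to 0.30 for Fpr2. The cause of these moves was not tested. Saa3, Cfb, C3 and C5ar1 stayed above 0 and C3ar1 below 0 in all 21 alternatives; for genes chosen on this contrast, or with groups that do not overlap, that is no sign of stability. The genes closest to Saa3 and Cfb were the same 5 each with a prior count of 0.5.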
